A study of Mus musculus with 11 samples.

Results

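The genes described here encode proteins of the spliceosome that recognise introns: the SR proteins, the proteins of the Sm ring and of the U1 and U2 small nuclear ribonucleoproteins (snRNPs), the SF3A and SF3B subunits of the U2 snRNP and the U2AF proteins. They were chosen by name, as the protein-coding genes whose symbols begin with Srsf, Snrp, Sf3 or U2af, leaving out *Snrpn*, and numbered 34 of the 54146 genes in the tables. Of these, 33 were detected. RNA-seq had been carried out by a Smart-seq2 protocol on 11 single mouse embryos of the C57BL/6 strain, collected at the 8-cell stage (E2.5) from intercrosses of *Prdm10*Δ/+ mice. The mutants (n = 5) were *Prdm10* KO, with exon 5 deleted on both alleles, and the controls (n = 6) were *Prdm10* WT/HET, a mixed group of wild-type and heterozygous embryos that the labels do not separate. Genotypes had been assigned by qRT-PCR of exon 5 in the embryo's own cDNA. The embryos were handled in 2 batches. Batch 1, with 16 cycles of cDNA pre-amplification, held controls 4 to 6 and mutants 4 and 5, and batch 2, with 13 cycles, held controls 1 to 3 and mutants 1 to 3. PRDM10 is a zinc finger transcription factor, and mutants were compared with controls to find transcripts that change in its absence. The embryos' litters are not given in the labels, so p-values measure only the spread between these embryos.

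Introns are removed by snRNPs, each a small nuclear RNA bound by proteins. A ring of 7 Sm proteins sits on the U1, U2, U4 and U5 RNAs. The U1 snRNP pairs with the 5′ splice site, U2AF binds the polypyrimidine tract and the AG of the 3′ splice site, and the U2 snRNP, held by SF3A and SF3B, pairs with the branch point. SR proteins carry an RNA-binding domain and a tail rich in arginine and serine, bind exons and help recruit U1 and U2AF. Transcription from the embryo's own genome has replaced most maternal mRNA by the 8-cell stage in the mouse, and the nascent transcripts need splicing.

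Libraries held 3534735 to 8265840 summed expected counts, the reads that RSEM assigned to genes. TPM (a level per length of transcript, scaled to the same total in each library) of *Prdm10* was 11.1 to 24.8 in controls and 4.88 to 8.16 in mutants, without overlap, although its count did not pass the test (log2 fold change -0.66 ± 0.26, SE, DESeq2 adjusted p = 0.215). Its effective length, by which TPM is divided, was also apart, at 2565 to 3357 bases in controls and 4348 to 5051 bases in mutants, so its TPM differs by more than its count. All 8 markers of the 8-cell embryo were detected, among them *Pou5f1*, *Nanog* and *Dppa3*, with a summed level of 6852 to 8452 TPM in controls and 7530.1 to 8629 TPM in mutants. The 7 cumulus and granulosa cell markers summed to at most 3.08 TPM, with *Has2* at 0. The 6 oocyte and zona markers summed to 31.4 to 114 TPM in controls and 45.2 to 76.7 TPM in mutants, and the 6 markers of the 2-cell stage to at most 16.2 TPM. The 6 blood and immune markers (*Hbb-bt* at 0) and the 6 oviduct epithelium markers are described with the comparison of batches.

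The splicing genes were abundant. The median of their mean levels over the 11 embryos was 139.6 TPM, against 12.0 TPM over the 9742 protein-coding genes with a mean of at least 1 TPM. Together they made up 0.746% of all TPM. Within each complex, however, transcript levels were far from equal, as the plot of TPM by gene shows.

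**Figure D1:**
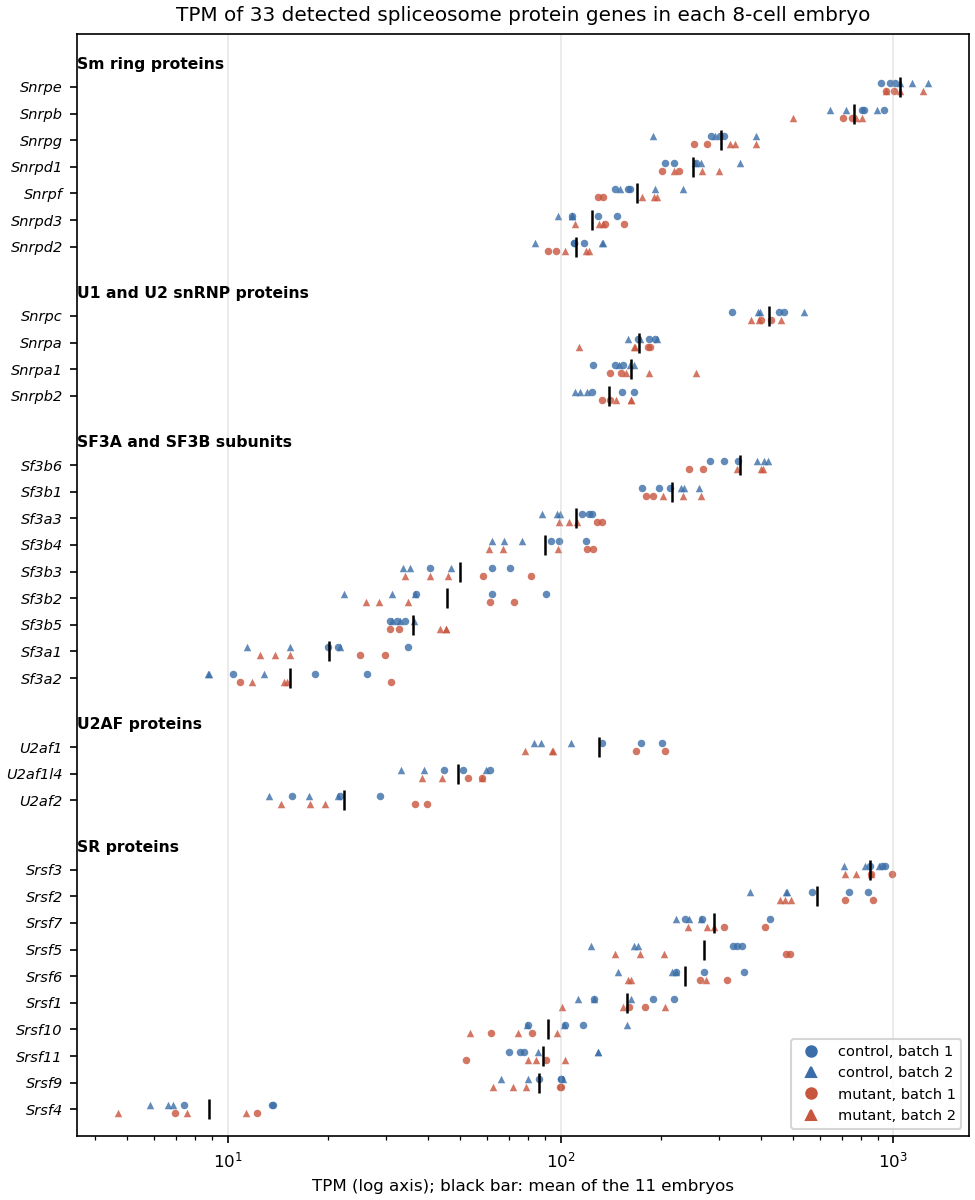
TPM (log axis) of the 33 detected genes in each of the 11 embryos, by complex, with controls in blue, mutants in red, batch 1 as circles, batch 2 as triangles and the mean of all embryos as a black bar. Levels ran from 8.81 TPM on average for *Srsf4* to 1049 TPM for *Snrpe*, and the red and blue points of most genes lay among each other.

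The 7 proteins of the Sm ring are present once each in the ring, but their transcripts spanned 9.45-fold in mean TPM. *Snrpe*, which encodes SmE, was the highest of all the genes (chr1:133603871-133610291, minus strand, GRCm38). Its level lay between 918 and 1272 TPM (median 1030.1) in controls and was 1227, 1046, 951, 1004 and 947 TPM in mutants 1 to 5, so that the 2 groups overlapped. *Snrpb*, for SmB, followed at 759 ± 119 TPM (SD, n = 11) and was below *Snrpe* in 11 of 11 embryos. *Snrpg* (303 ± 56.9 TPM), *Snrpd1* (250.4 ± 43.6 TPM) and *Snrpf* (169.9 ± 31.0 TPM) came next, and neighbours kept this order in 10 of 11 embryos for *Snrpg* over *Snrpd1* and in 11 of 11 for *Snrpd1* over *Snrpf*. *Snrpf* was above *Snrpd3* in 6 of 6 embryos of batch 2 but 2 of 5 of batch 1. *Snrpd3* (124 ± 18.5 TPM) and *Snrpd2* (111 ± 16.1 TPM) had the lowest means and did not keep their order, *Snrpd3* being the higher in 7 of 11 embryos. Some of these levels are less certain than others. Of the 75-base windows of *Snrpf* transcripts, 85.4% also occurred in another gene, mainly the opposite-strand *Ccdc38*, which was listed at 0.312 TPM, and the protocol does not keep strand. *Snrpg* shared 16.0% of its windows, mainly with the copy *Gm8186*, to which RSEM gave 298 TPM, and the posterior SD of its count, which RSEM gives for the division of reads, had a median of 2.94% of the count. *Snrpe* shared 7.25%, mainly with the processed copy *Snrpert*, listed at 81.3 TPM.

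Among the proteins specific to U1 and U2, *Snrpc*, for the U1-C protein that steadies the pairing of U1 with the 5′ splice site, was highest. It lay between 327 and 540.4 TPM (median 426) in controls and at 374, 394, 460.4, 429.8 and 401 TPM in mutants 1 to 5. *Snrpa* (U1-A), *Snrpa1* (U2-A′) and *Snrpb2* (U2-B″) were close to each other, at 172 ± 22.5 TPM, 163 ± 34.3 TPM and 139.6 ± 20.3 TPM (SD, n = 11). *Snrpa* exceeded *Snrpa1* in 7 of 11 embryos, all 5 of batch 1 and 2 of 6 in batch 2, and *Snrpa1* exceeded *Snrpb2* in 8 of 11.

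SF3A and SF3B showed the wider spread, 22.5-fold between *Sf3b6* and *Sf3a2*. *Sf3b6* encodes the p14 subunit that lies at the branch point adenosine. Its level was 281 to 419.8 TPM (median 365) in controls and 339.7, 401, 406, 244 and 267 TPM in mutants 1 to 5. *Sf3b1*, the large scaffold subunit that is often mutated in blood cancers, was second in 11 of 11 embryos at 217 ± 30.5 TPM (SD, n = 11). The SF3A subunits differed among themselves, with *Sf3a3* at 112 ± 14.6 TPM, *Sf3a1* at 20.1 ± 7.45 TPM and *Sf3a2* at 15.3 ± 7.20 TPM. Between them lay *Sf3b4* (90.1 ± 24.5 TPM), *Sf3b3* (49.97 ± 16.1 TPM), *Sf3b2* (45.7 ± 22.3 TPM) and *Sf3b5* (35.9 ± 5.88 TPM). Other genes, chiefly *Gm7935*, shared 43.8% of the windows of 75 bases in *Sf3b4* transcripts (median posterior SD 0.497% of its count). The order of *Sf3b2* and *Sf3b5* differed by batch, *Sf3b2* being higher in 5 of 5 embryos of batch 1 and 1 of 6 of batch 2.

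Of the U2AF proteins, *U2af1*, the small subunit that reads the AG, stood at 83.0 to 202 TPM (median 120.2) in controls and at 78.3, 95.1, 94.5, 169 and 206 TPM in mutants 1 to 5. Its paralog *U2af1l4* (49.1 ± 9.85 TPM) exceeded the large subunit *U2af2* (22.4 ± 8.88 TPM) in 11 of 11 embryos. Other genes shared 44.4% of the 75-base windows of *U2af1*, chiefly a processed copy, *Gm10232*, and 52.3% of those of *U2af1l4*, chiefly *Gm49396* on the same strand. How such reads are divided is an estimate, with a median posterior SD of 1.92% of the count for *U2af1* and 1.65% for *U2af1l4*, and *Gm10232* and *Gm49396* had mean levels of 5.22 and 0.572 TPM.

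The SR proteins spanned 96.4-fold among the 10 detected. *Srsf3*, the smallest family member, was highest, at 709 to 945 TPM (median 875) in controls and 774, 856, 716, 988 and 858 TPM in mutants 1 to 5. *Srsf2* (SC35) followed at 589 ± 170.4 TPM (SD, n = 11) and was below *Srsf3* in 10 of 11 embryos. *Srsf7* (289.8 ± 68.4 TPM), *Srsf5* (269.5 ± 133 TPM), *Srsf6* (237 ± 66.0 TPM) and *Srsf1* (158 ± 38.6 TPM) formed a middle group. Their order by mean did not hold in both batches. *Srsf7* was above *Srsf5* in 1 of 5 embryos of batch 1 and 6 of 6 of batch 2, and *Srsf5* was above *Srsf6* in 4 of 5 and 2 of 6. *Srsf10*, a splicing repressor when dephosphorylated, *Srsf11* and *Srsf9* had close means, at 91.8 ± 29.0 TPM, 88.8 ± 23.7 TPM and 86.2 ± 15.0 TPM. Their order also differed by batch. *Srsf11* was above *Srsf9* in 0 of 5 embryos of batch 1 and 5 of 6 of batch 2, and *Srsf10* was above *Srsf11* in 4 of 5 and 2 of 6. *Srsf4* was lowest at 8.81 ± 3.26 TPM, and 63.8% of its windows occurred elsewhere, mainly in the opposite-strand *Gm12992*. Other genes also shared 25.2% of the windows of *Srsf3*, mainly *Gm12355*, and 18.2% of those of *Srsf5*, mainly the processed copy *Gm12966*. The median posterior SD was 0.522% of the count for *Srsf3* and 0.182% for *Srsf5*. *Srsf12* had no count in any of the 11 libraries, which allows a level of up to 0.242 to 0.592 TPM depending on the library (3 counts, counting error only).

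The genes are spread over the genome and many of their promoters hold the same short run of letters. RefSeq promoter windows of GRCm38.p6 (300 bases, from 250 before the start to 50 after it) covered 29 of the 34 genes, all but *Sf3b4*, *Sf3b5*, *Snrpb*, *Snrpd1* and *U2af2*. The letters CCGGAAG, the core read by ETS family transcription factors, were searched on both strands and no other motif was searched. They were present in 14 of the 29 genes (48.3%), against 12.9% of 17492 protein-coding genes. The windows of the splicing genes were also rich in CpG (median 25 against 13). Of the protein-coding genes with a window of at least 25 CpG, 20.1% held the letters there. That share covers only such windows, while the 48.3% includes matches in windows with fewer CpG, such as *Snrpc* (18) and *Srsf5* (20). The 20.1% and the 48.3% are therefore not like for like. The match was in 6 of the 7 SF3A and SF3B genes with a window, 2 of 5 Sm genes, 2 of 4 U1 and U2 genes, 4 of 11 SR genes and 0 of 2 U2AF genes. These are matches of letters and not measured binding sites. They lie on either strand. In *Sf3a3*, *Sf3b3* and *Snrpb2* the match nearest the start was the reverse complement, CTTCCGG. For some matches on the gene's own strand, the 30 bases around the match are shown 5′ to 3′ in the direction of the gene. The 7 letters are in capitals. These stretches come from 4 SF3 genes, the highest U1 or U2 gene and the gene that differed most between batches. They lie at chr11:4160336-4160365 on the plus strand for *Sf3a1*, chr10:80798648-80798677 on the plus strand for *Sf3a2*, chr19:5295450-5295479 on the minus strand for *Sf3b2*, chr12:4817527-4817556 on the plus strand for *Sf3b6*, chr17:27840037-27840066 on the plus strand for *Snrpc* and chr12:80945465-80945494 on the plus strand for *Srsf5*.
Sf3a1: agagggcgggaCCGGAAGtgctcccgcggc
Sf3a2: cgcctttgctcCCGGAAGggatcgcttcgt
Sf3b2: ggattacgcaaCCGGAAGtttctggaagta
Sf3b6: cggtccgcaatCCGGAAGcgttctggagct
Snrpc: tagggcagaggCCGGAAGcggaagtcctac
Srsf5: ctggcaccgccCCGGAAGtgacgccaggac

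Summed over each complex, levels did not separate the genotypes. The Sm ring genes summed to 2818 ± 178 TPM (SD, n = 6) in controls and 2703 ± 213 TPM (SD, n = 5) in mutants. The SR genes summed to 2653 ± 408 TPM and 2685 ± 542 TPM. For SF3A and SF3B the sums were 934 ± 68.8 TPM and 928 ± 17.3 TPM. The U1 and U2 genes summed to 892 ± 54.6 TPM and 902 ± 59.7 TPM. The U2AF genes summed to 199 ± 57.2 TPM and 204 ± 71.7 TPM. In all 5 the difference of the group means was smaller than the SD of either group. These SDs pool both batches and so include the batch differences given below. TPM is relative to all other transcripts of the embryo. An even change in RNA over all genes, from fewer cells or less RNA per cell, would therefore not show in it.

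The sums of 2 complexes were split by batch. SR sums were 2889 to 3319.8 TPM in batch 1 and 2161 to 2393 TPM in batch 2, and U2AF sums were 199.7 to 295 TPM and 137 to 172 TPM, in both without overlap. Within batch 1 the SR sum was 2889 to 3149.7 TPM in the 3 controls and 3221 and 3319.8 TPM in the 2 mutants, while within batch 2 the ranges nearly coincided (2161 to 2391 TPM and 2164 to 2393 TPM). The Sm sum within batch 1 was 2615 to 2886 TPM in controls and 2550.1 and 2555 TPM in mutants, and in batch 2 it overlapped between genotypes. Neither separation within batch 1 was seen in batch 2.

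**Figure D2:**
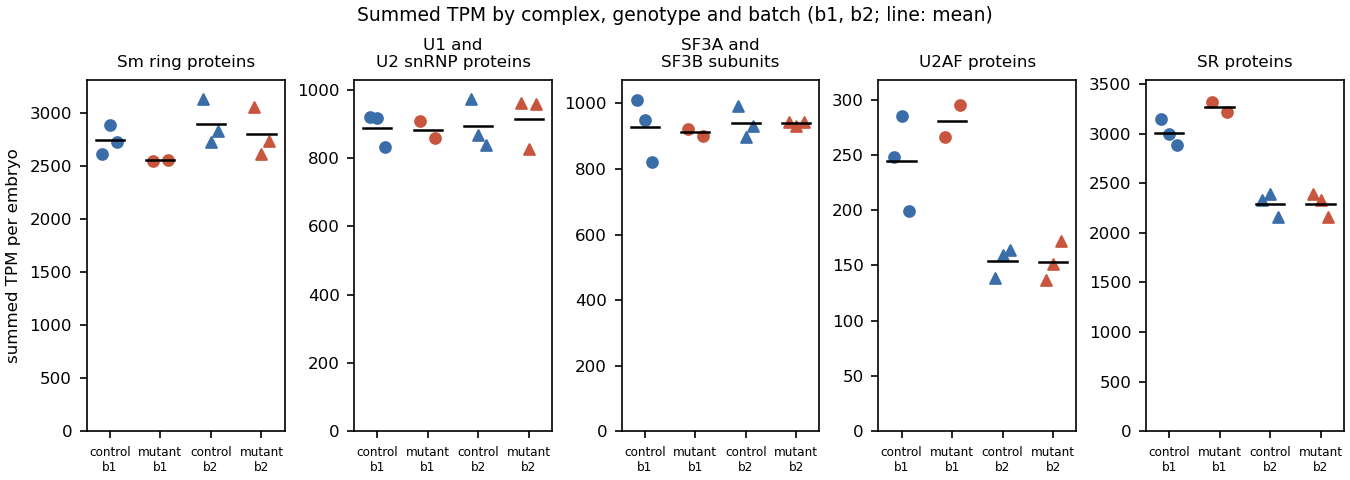
Summed TPM of each complex in every embryo (y axes from 0), by genotype and batch, with the mean of each set as a line. SR and U2AF sums were lower in all 6 embryos of batch 2 than in all 5 of batch 1, and controls and mutants of batch 2 overlapped in every panel.

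No splicing gene passed the test between *Prdm10* mutants and controls. Expected counts were tested with DESeq2 with batch in the model, fitted over all genes, and a gene was called at an adjusted p under 0.05 and a mean normalised count above 10. Of the 33 genes tested, 0 were called, where 151 of 10448 genes (1.45%) were called in all. At an unadjusted p under 0.05 there were 2 (*Srsf5* and *Snrpd3*), beside 11.9% of all genes tested, and edgeR called 0 with 1 at an unadjusted p under 0.05 (*Srsf5*), where it called 32 of 11798 genes in all. The lowest adjusted p of DESeq2 was 0.36. Log2 fold changes ran from -0.40 to 0.42, 22 above 0 and 11 below, with a median of 0.046. Over all genes the median was -0.00064. By complex the medians were -0.12 for the Sm ring, 0.037 for U1 and U2, 0.13 for SF3A and SF3B, 0.30 for U2AF and 0.039 for SR genes.

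The intervals give the sizes of change that these counts leave possible. The 95% interval of the log2 fold change lay within 2-fold in either direction for 32 of the 33 genes, as it did for 52.9% of all genes tested, and within 1.5-fold for 27. The exception was *Sf3a2*, whose interval reached 1.03. Standard errors were 0.11 to 0.32 (median 0.17), beside a median of 0.32 over all genes, many of which were less abundant. Of the 33 genes, 0 had mutants apart from controls in the same direction within both batches, which 2.74% of all genes did.

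**Figure D3:**
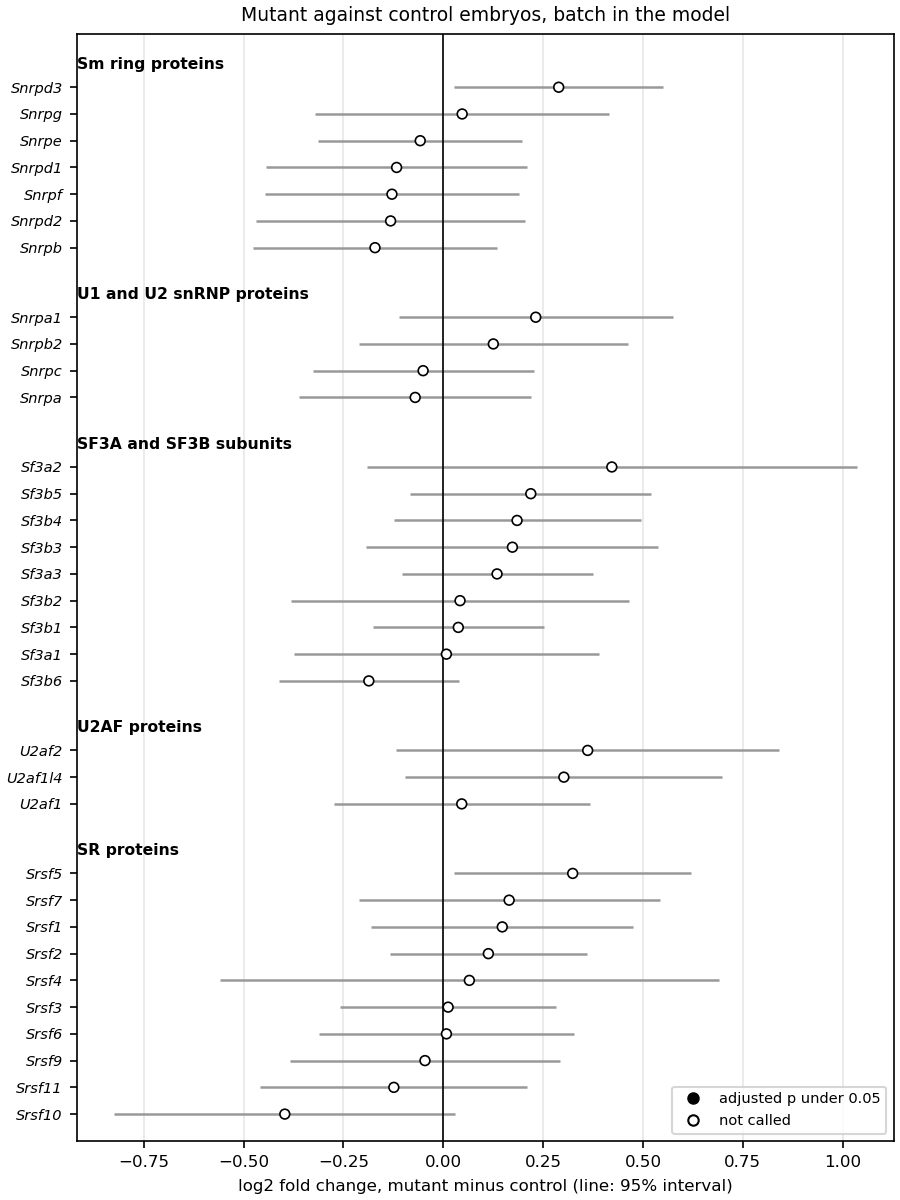
Log2 fold change of each gene's count, mutant minus control, from DESeq2 with batch in the model, as a point with its 95% interval, by complex. All points are open, meaning that none was called at an adjusted p under 0.05, and the intervals of all but *Snrpd3* and *Srsf5* cross 0.

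The 4 lowest fold changes belonged to *Srsf10*, *Sf3b6*, *Snrpb* and *Snrpd2*. Normalised counts of *Srsf10* were between 891 and 1637 (median 1142) in the 6 controls and 1203, 1037, 561, 1032 and 775 in mutants 1 to 5. Mutants 3 and 5 lay below every control and the other 3 mutants among the controls, giving a log2 fold change of -0.40 ± 0.22 (SE) that did not pass (DESeq2 adjusted p = 0.489). Within batches it was -0.31 in batch 1 and -0.46 in batch 2, and without mutant 3 it was -0.25. *Sf3b6* had counts between 825 and 1532 (median 1197) in the 6 controls and 1194, 1301, 1224, 823 and 854 in mutants 1 to 5. Its log2 fold change of -0.19 ± 0.11 (SE) was -0.13 in batch 1 and -0.23 in batch 2, and the spread of its counts within each group followed the batch. In batch 2 the 3 mutants (1194 to 1301) were below the 3 controls (1401 to 1532), and in batch 1 the genotypes overlapped. Counts of *Snrpb* were between 3467 and 4703 (median 4169) in the 6 controls and 4318, 2834, 4228, 3252 and 3565 in mutants 1 to 5, a log2 fold change of -0.17 ± 0.16 (SE) with the interval -0.48 to 0.14. Without mutant 2 the log2 fold change of *Snrpb* was -0.088. *Snrpd2*, for the SmD2 protein, gave counts between 547 and 942 (median 688) in the 6 controls and 684, 835, 824, 551 and 539 in mutants 1 to 5, which overlapped, and a log2 fold change of -0.13 ± 0.17 (SE). This value was -0.25 without control 2 and -0.074 without control 3, and -0.26 in batch 1, where both mutants were below the 3 controls, and -0.029 in batch 2.

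The 4 highest were *Sf3a2*, *U2af2*, *Srsf5* and *U2af1l4*. *Sf3a2* was thinly counted, with normalised counts between 55.4 and 112 (median 69.8) in the 6 controls and 66.4, 114, 105, 145 and 63.1 in mutants 1 to 5. Its log2 fold change was 0.42 ± 0.31 (SE), its interval (-0.19 to 1.03) was the widest on the upper side, and 15.7% of its windows were shared, mainly with the opposite-strand *Plekhj1*. Without mutant 4, the highest of its embryos, the log2 fold change of *Sf3a2* was 0.23. *U2af2* counts were between 119.9 and 228 (median 179.5) in the 6 controls and 125, 182, 189, 331 and 318 in mutants 1 to 5. Its log2 fold change of 0.36 ± 0.24 (SE) was 0.79 in batch 1, where both mutants were above the 3 controls, and 0.0083 in batch 2. *U2af1l4* counts were between 119.7 and 168 (median 138) in the 6 controls and 162, 150.2, 219, 187 and 156 in mutants 1 to 5. Here the log2 fold change of 0.30 ± 0.20 (SE) was alike in the batches, 0.29 in batch 1 and 0.32 in batch 2, but did not pass the test (DESeq2 adjusted p = 0.599), and it was 0.090 with effective length as an offset and 0.10 in limma on log2(TPM + 1).

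*Srsf5* encodes an SR protein whose transcripts respond to growth signals, and it had one of the 2 lowest unadjusted p-values. Its normalised counts were between 923 and 2236 (median 1639) in the 6 controls and 1024, 1281, 1491, 2911 and 3092 in mutants 1 to 5. Its log2 fold change of 0.32 ± 0.15 (SE) did not pass (DESeq2 adjusted p = 0.37, edgeR adjusted p = 0.485). The genotypes overlapped over both batches and within batch 2, while in batch 1 both mutants were above the 3 controls (2030.0 to 2236), and the within-batch log2 fold changes were 0.50 in batch 1 and 0.18 in batch 2. *Snrpd3*, for SmD3, had counts between 372 and 454 (median 386) in the 6 controls and 459.6, 492, 479, 443 and 525 in mutants 1 to 5, and a log2 fold change of 0.29 ± 0.13 (SE, DESeq2 adjusted p = 0.36, edgeR adjusted p = 0.575). Control 4 lay above mutant 4, and all other mutants were above all controls.

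Many of these genes differed between batches. The batches differ in PCR cycles and in the embryos collected, which cannot be told apart. In the same DESeq2 fit, 15 of the 33 genes differed between batches, 8 higher and 7 lower in batch 2. Of all 10448 genes tested, 27.9% differed, 13.8% higher and 14.0% lower. The called genes came from all 5 complexes. In the Sm ring 3 genes were higher and 0 lower, among the U1 and U2 genes 1 was higher, SF3A and SF3B were divided with 3 higher and 4 lower, 1 U2AF gene was lower, and of the SR genes 1 was higher and 2 lower. All 15 differences had the same sign in controls alone and in mutants alone. The calls were made on these same embryos, so this agreement is no separate support. The normalised counts of the batches did not overlap for 8 of the 33 genes, all of them called, and for 13.0% of all genes tested.

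**Figure D4:**
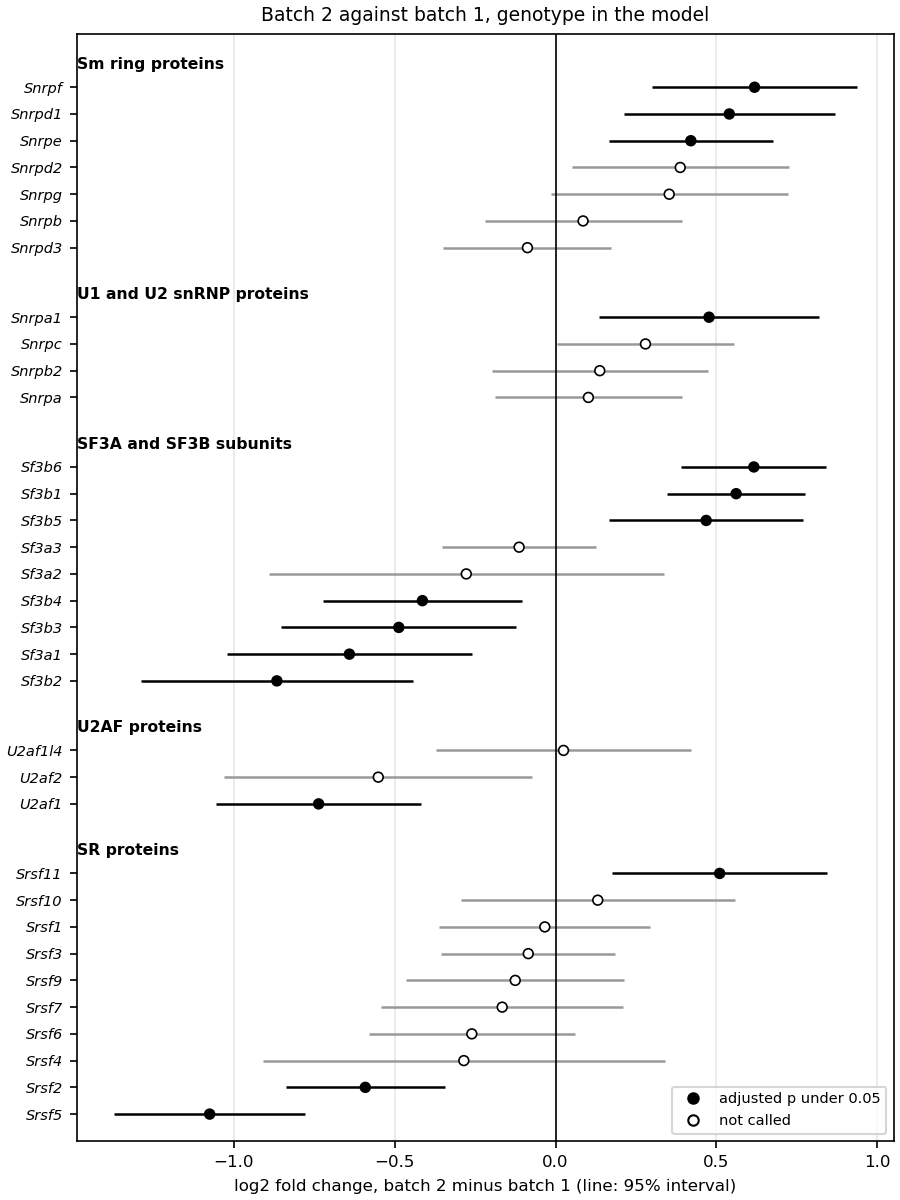
Log2 fold change of each gene's count, batch 2 minus batch 1, from DESeq2 with genotype in the model, with its 95% interval and filled points for an adjusted p under 0.05. Filled points stand on both sides of 0 within SF3A and SF3B and within the SR genes, and to the right only within the Sm ring.

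*Srsf5* differed most. Its normalised counts were 2030.0, 2126, 2236, 2911 and 3092 in the 5 embryos of batch 1, and between 923 and 1491 (median 1210.0) in the 6 of batch 2. Every embryo of batch 2 was below every embryo of batch 1, a log2 difference of -1.08 ± 0.15 (SE, DESeq2 adjusted p = 1.25e-10). *Srsf2*, which controls its own mRNA by splicing, had counts of 4318, 4157, 3374, 3881 and 4932 in the 5 embryos of batch 1, and between 2479 and 2927 (median 2793) in the 6 of batch 2, again with no overlap. Its log2 difference was -0.59 ± 0.13 (SE, DESeq2 adjusted p = 5.25e-05), and 29.0% of its 75-base windows were shared, mainly with the opposite-strand *Mettl23*. *Srsf11*, also called p54, went the other way, with counts of 634, 580.2, 634, 681 and 484 in the 5 embryos of batch 1, and between 688 and 1039 (median 862) in the 6 of batch 2. The gap between batches was narrow, and the log2 difference was 0.51 ± 0.17 (SE, DESeq2 adjusted p = 0.0164).

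*U2af1* was lower in batch 2. Its counts were 577, 728, 521, 594 and 751 in the 5 embryos of batch 1, and between 321 and 434 (median 379.7) in the 6 of batch 2, without overlap, and the log2 difference was -0.74 ± 0.16 (SE, DESeq2 adjusted p = 0.00011). The large subunit *U2af2* had a log2 difference of -0.55 ± 0.24 (SE) that did not pass the test (adjusted p = 0.0854).

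Within SF3B, *Sf3b6* and *Sf3b1* were higher in batch 2. *Sf3b6* counts were 825, 994, 943, 823 and 854 in the 5 embryos of batch 1, and between 1194 and 1532 (median 1351) in the 6 of batch 2. The batches did not overlap, and the log2 difference was 0.62 ± 0.11 (SE, DESeq2 adjusted p = 2.66e-06). *Sf3b1* counts were 3058, 2754, 2995, 3148 and 2919.8 in the 5 embryos of batch 1, and between 3919.5 and 4716 (median 4459) in the 6 of batch 2. These did not overlap either, and the log2 difference was 0.56 ± 0.11 (SE, DESeq2 adjusted p = 7.45e-06). *Sf3b5*, the smallest of the SF3B subunits, had counts of 483, 499, 605, 491 and 539 in the 5 embryos of batch 1, and between 582 and 891 (median 764) in the 6 of batch 2, which overlapped, with a log2 difference of 0.47 ± 0.15 (SE, adjusted p = 0.0146).

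The other SF3 genes called were lower in batch 2. *Sf3b2*, whose product binds near the branch point, had counts of 1135, 848, 546, 817 and 1004 in the 5 embryos of batch 1, and between 344 and 575 (median 485) in the 6 of batch 2. The ranges overlapped, and the log2 difference was -0.87 ± 0.22 (SE, DESeq2 adjusted p = 0.000719). *Sf3a1* encodes the largest SF3A subunit. Its counts were 635, 412, 476, 585 and 518 in the 5 embryos of batch 1, and between 243 and 446 (median 342) in the 6 of batch 2, which overlapped, and the log2 difference was -0.64 ± 0.19 (SE, adjusted p = 0.00725). *Sf3b3* encodes a scaffold subunit of SF3B. Its counts were 1192, 1115, 707, 1349.8 and 1004 in the 5 embryos of batch 1, and between 620.3 and 979 (median 771) in the 6 of batch 2, overlapping, with a log2 difference of -0.49 ± 0.19 (SE, adjusted p = 0.0408). *Sf3b4* encodes an RNA-binding subunit. It had counts of 855, 746, 857, 977 and 950.1 in the 5 embryos of batch 1, and between 564 and 888 (median 624) in the 6 of batch 2 and a log2 difference of -0.41 ± 0.16 (SE, adjusted p = 0.04). Neither of these last calls passed in edgeR (adjusted p = 0.0582 and 0.0706).

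In the Sm ring the called genes were higher in batch 2. *Snrpf*, for SmF, had counts of 454, 549, 589, 431 and 464 in the 5 embryos of batch 1, and between 579 and 912 (median 767) in the 6 of batch 2, a log2 difference of 0.62 ± 0.16 (SE, DESeq2 adjusted p = 0.00141). *Snrpd1*, for SmD1, had counts of 623, 722, 913, 649 and 757 in the 5 embryos of batch 1, and between 837 and 1312 (median 1031) in the 6 of batch 2, a log2 difference of 0.54 ± 0.17 (SE, adjusted p = 0.00864). Both overlapped between batches. *Snrpe*, the most abundant of the genes, did not overlap, with counts of 1560.0, 1877, 1971, 1815 and 1778 in the 5 embryos of batch 1, and between 2044 and 2709 (median 2442) in the 6 of batch 2 and a log2 difference of 0.42 ± 0.13 (SE, adjusted p = 0.00878). The one U2 protein gene called was *Snrpa1*, with counts of 527, 718, 734, 696 and 659 in the 5 embryos of batch 1, and between 789.5 and 1397 (median 872) in the 6 of batch 2, a narrow gap between batches, and a log2 difference of 0.48 ± 0.17 (SE, adjusted p = 0.0314).

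Of the 15 calls, 10 were kept whichever embryo was left out, and 5 were lost in at least 1 of the 11 refits. The call of *Sf3b3* was lost without control 2, 3, 4 or 5 or mutant 1, 3 or 4 (adjusted p = 0.0603 to 0.168, smallest log2 difference -0.40), and that of *Sf3b4* without control 1, 2, 4 or 6 or mutant 2, 3, 4 or 5 (adjusted p = 0.0832 to 0.114, smallest -0.36). *Snrpa1* was lost without control 3 or 4 or mutant 1, 4 or 5 (adjusted p = 0.0641 to 0.122, smallest 0.37). *Srsf11* was lost without control 3 or 5 or mutant 2 or 5 (adjusted p = 0.0536 to 0.0871, smallest 0.44), and *Sf3b5* without mutant 4 or 5 (adjusted p = 0.0715 to 0.0879, smallest 0.39).

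Other measures moved with batch. Across all genes tested, the batch log2 difference and the GC content of a gene's transcripts had a Spearman correlation of -0.396 (n = 10445 genes, which share libraries and are not independent). Over the 33 splicing genes it was -0.448. The 8 genes higher in batch 2 had a median GC content of 44.7% (range 40.6% to 48.6%), the 7 lower ones 50.6% (42.9% to 56.2%), and the 18 others 48.9%. The correlation with log2 effective length was -0.381 over the splicing genes and 0.062 over all genes tested, and the median effective length was 924 bases for the genes higher in batch 2, 1829 bases for the lower ones and 1294 bases for the others. Blood and immune markers, led by *Lyz2*, summed to 1.12 to 5.85 TPM in batch 1 and 17.5 to 154 TPM in batch 2. Oviduct epithelium markers, led by *Ovgp1*, summed to 0 to 0.810 TPM and 1.59 to 32.9 TPM. The part of these measures in the differences of the splicing genes was not tested.

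Whether the genotype difference itself depended on batch was tested with an interaction term. Of the splicing genes 0 were called, and 0 had an unadjusted p under 0.05, whereas 4 of 10472 genes (0.0382%) were called and 4.3% had an unadjusted p under 0.05. With edgeR, 0 of all genes were called. The lowest p belonged to *Snrpb2* (log2 interaction 0.60 ± 0.31, SE, DESeq2 adjusted p = 1), which was named after its value was seen. Its normalised counts were between 683 and 979 (median 708) in the 6 controls and 892, 1054, 895, 665 and 698 in mutants 1 to 5. In batch 2 the mutants (892 to 1054) were above the controls (691 to 771). In batch 1 the mutants (665 and 698) overlapped the controls (683 to 979, the highest being control 6).

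SR genes are known for alternative isoforms, among them transcripts with a poison exon that are degraded. The gene-level tables hold no isoform counts, but the effective length of a gene in each embryo is the mean length of its isoforms weighted by their estimated share, so it moves when reads go to longer or shorter isoforms. In a limma test of log2 effective length with batch in the model, 0 of the 33 genes differed between genotypes, as did 0 of all 7456 genes tested (0.0%). For 6 of the 33 (*Sf3b2*, *Sf3b5*, *Srsf7*, *Snrpd1*, *Snrpf* and *U2af1*) the effective length was the same in all embryos to within 1 base, too little to stand for a shift between isoforms. The same held for 15.5% of all genes tested. In the authors' quantification each of the 6 genes had 1 transcript, except *U2af1* with 2. The test bears on the other 27 only. Among these, *Snrpe* (427 to 429 bases), *Snrpb* (1086 to 1092) and *Snrpd2* (1343 to 1346) varied little. At an unadjusted p under 0.05 there was 1 splicing gene, *Sf3a1*, beside 5.3% of all genes. Its mean effective length was 4475 bases in controls and 4678 in mutants (limma adjusted p = 0.914). In batch 2 the 3 mutants (4846, 4670.4 and 4493 bases) were above the 3 controls (4130.1, 4387 and 4265), and in batch 1 the genotypes overlapped. Between batches 1 of the 27 differed, *Srsf2*. Of all 7456 genes 379 differed (5.08%), of which 298 were among the 6302 whose length varied by 1 base or more. The rest were called for differences under 1 base, too small to stand for an isoform. Effective lengths of *Srsf2* were 1300.0, 1305, 1260.0, 1280.1 and 1299 bases in batch 1 and 1158 to 1271 bases (median 1194) in batch 2. They overlapped in 1 embryo, and the log2 difference was -0.10 (limma adjusted p = 0.0457).

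Other genes of the splicing pathway were counted in the same way. Of 102 further genes in 8 lists, 99 were tested, and 0 were called between genotypes in either direction. At an unadjusted p under 0.05 there were 12, beside 11.9% of all genes tested. Their median log2 fold change was 0.0091. By list the medians were 0.11 for 16 U5 and tri-snRNP genes, 0.047 for 16 other U1, U2 and U2-related genes, and -0.10 for the 7 genes of the LSM ring, which binds U6. They were 0.059 for 21 genes of the Prp19 complex and the catalytic steps and -0.061 for 8 minor spliceosome genes. For the 14 genes of snRNP assembly, which load the Sm ring onto RNA, the median was -0.11, for 7 SR protein kinase and import genes -0.092, and for 10 SR-related genes 0.060. Between batches, 20 of the 99 were higher and 18 lower in batch 2, where 13.8% and 14.0% of all genes tested were.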

How the data were processed

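Single embryos had been sequenced (single-end) after Smart-seq2 amplification, and the authors aligned the reads with STAR (version 2.6.0c) to GRCm38.p6 and quantified genes with RSEM. Each deposited table gives 1 embryo's expected counts per gene (reads shared between genes are divided by estimate), TPM (scaled by the authors to 1 total per library), effective length and a posterior SD of the count, listed per the file headers. The authors' own comparison table (fold changes and p-values) was not used. The members, gene lists and searched motif were chosen with earlier results of these data known.

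Expected counts were rounded and fitted over all genes with the DESeq2 (version 1.42.0, R version 4.3.3) Wald test, with batch and genotype as terms and Benjamini-Hochberg adjustment. DESeq2 was kept as the main test because the study used it. An interaction term was fitted likewise. Log2 effective length was tested with limma (version 3.58.1) over genes with at least 10 counts in every embryo. Normalised counts are counts divided by DESeq2 size factors. Medians, sums and shares over the listed genes are descriptions without a test. Groups and batches came from the labels, and replicate numbers follow their order there. Values in every embryo were given for genes called in any comparison, the highest of each complex, the 4 lowest and 4 highest fold changes and undetected genes; *Snrpd3*, *Snrpb2* and the effective lengths of *Sf3a1* were added after their values were seen. The other members were given by mean, range or count. Shared windows of 75 bases were counted between transcripts of a GENCODE annotation of GRCm38 later than the authors'. Library size sets the precision, and PCR copies were counted as separate reads, so limits cover counting error only. The tests were checked on simulated data. Alternatives were edgeR (version 4.0.16), limma on log2(TPM + 1), other normalisations and filters, single batches and each embryo left out.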

Additional observations from a re-analysis of the deposited data

Results flagged for a closer look

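In 2 of the 76 sets of normalised counts or summed TPM examined (each gene and each complex, in controls and in mutants), 1 embryo stood apart from the rest of its group by Dixon's criterion, which chance alone meets in about 1 of 20 sets. The groups pool both batches, which this criterion and its chance rate leave out of account. *Snrpd3* had a normalised count of 454 in control 4, whereas the other 5 controls lay between 372 and 399.8. All 3 controls of batch 1, among them control 4, were above all 3 controls of batch 2. *Snrpb2* had a normalised count of 979 in control 6, whereas the other 5 controls lay between 683 and 771, and control 6 was above the other 2 controls of its batch as well.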

How the results depend on the processing

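No gene of the set was called between genotypes under any of the 21 alternatives, by edgeR, by limma or in either batch alone, nor by the interaction (14 alternatives) or in effective length (14 alternatives). The median log2 fold change between genotypes, 0.046 in the reported fit, ranged from 0.0079 without a batch term to 0.080 without control 1. Between batches 15 of the 33 genes were called, and 13 by edgeR, which called 2367 of 11798 genes in all. When each embryo was left out in turn, 11 to 15 of the 33 were called. For these refits no share over all genes is given. Single-gene calls between batches were lost in 28 of 195 refits, all of them in *Sf3b3*, *Sf3b4*, *Sf3b5*, *Snrpa1* and *Srsf11*, and no fold change turned its direction. Log2 ratios of summed TPM, mutant to control, moved by less than 1 SD between embryos in every alternative, the widest range being -0.13 to 0.17 for the U2AF genes. That SD pools both batches and so includes their difference. The ratio changed sign in some alternatives for every complex but the Sm ring. The batch 1 comparison rests on 2 mutants, and standard errors between genotypes were highest for *Srsf4* (0.32) and *Sf3a2* (0.31). No paired analysis was possible because replicate numbers only name embryos and the labels tie no control to a mutant beyond the batch.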
